A study of Homo sapiens with 9 samples.

Results

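Growth factors are secreted or cell-bound proteins that tell neighbouring cells to divide, move, survive or form vessels. The 9 genes described here were taken by name from the 19389 rows of the expression table. They are VEGFA and VEGFC of the vascular endothelial growth factor (VEGF) family, ESM1, fibroblast growth factor 2 (FGF2), hepatocyte growth factor (HGF), the epidermal growth factor (EGF) family ligands HBEGF, AREG and EREG, and the neurotrophin BDNF. RNA was sequenced in triplicate from 3 groups of SW1353, a line from a human cartilage tumour that serves as a chondrocyte model. Cells of one group were given PBSL, made from larvae of Protaetia brevitarsis seulensis, a beetle, for 2 h and then the inflammatory cytokine interleukin-1β (IL-1β) at 20 ng/mL for 20 h. Another group had IL-1β alone, and the last was untreated. All were grown for 24 h beforehand, no group received PBSL alone, and the labels list PBSL at 50, 100 and 200 µg/mL without saying which concentration the sequenced cells had. The labels do not say that replicates were separate cultures, so p-values measure only the spread between these libraries.

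Cartilage normally has no blood vessels, and vessel growth into it is known from inflamed and osteoarthritic joints. VEGFA drives vessel sprouting through the receptor KDR with the neuropilins as coreceptors, VEGFC acts mainly on lymphatic endothelium, and ESM1 is a proteoglycan best known from endothelial tip cells. FGF2 is held on heparan sulfate and signals through FGF receptors, HGF acts through MET, and the EGF family ligands are made as membrane precursors that are shed and bind EGFR. BDNF acts on neurons through NTRK2, and also binds NGFR.

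Of the 9 genes, 6 passed a filter that asked for 3 or more libraries with values of 1 or more, and AREG, EREG and HGF did not. The values are normalised for transcript length and depth and summed to between 523758 and 553196 per library. They are not counts, so the depth behind each is unknown. Over the 11924 tested genes, the first PBSL library differed from the IL-1β mean by a root mean square of 0.165 on the log2 scale, against 0.292 and 0.281 for libraries 2 and 3, so it lay nearer to IL-1β alone. The cartilage regulator SOX9 averaged 8.92, 8.80 and 12.0 in PBSL plus IL-1β, IL-1β and untreated cells, while COL2A1, the main collagen of cartilage, reached at most 0.027 in any library. Of 11 chondrocyte and cartilage markers, 6 stayed under 1 in every library. The 11 summed to between 13.2 and 14.99, 14.7 and 16.4, and 19.3 and 21.4 in the same groups. Only 4 of them were tested. With IL-1β against untreated cells 1 was called higher and 3 lower, beside 16.2% and 16% of all tested genes. Of 8 endothelial markers, 7 stayed under 1 in every library, none was at 0 throughout, and their sum ran from 4.59 to 5.37, from 4.87 to 4.98 and from 4.11 to 4.51 in the same 3 groups. The 8 leukocyte markers summed to between 4.31 and 4.79, 5.10 and 5.57, and 4.73 and 4.86. The 6 epithelial markers, mainly the keratins KRT8 and KRT18, summed to between 54.1 and 73.8, 73.0 and 74.4, and 138 and 151. The part of these markers in the results below was not tested, and in bulk RNA fewer expressing cells and less RNA per cell cannot be told apart.

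The upstream sequences of 4 members are shown because these genes rose with IL-1β and have a single entry in the RefSeq promoter table (GRCh38.p14). Entries were found for 8 of the 9 members, VEGFA had none, and BDNF, which was not called with IL-1β, had 5. Stretches inside annotated exons were left out except for ESM1. There an annotated exon reaches the far end of the window, and 30 bases are shown. Capitals mark GGGCGG (the GC box of Sp1 family factors, on either strand), TATAAA (the TATA box) and ACGTG (the core of the hypoxia response element).
VEGFC, chr4:176792923-176793172, minus strand: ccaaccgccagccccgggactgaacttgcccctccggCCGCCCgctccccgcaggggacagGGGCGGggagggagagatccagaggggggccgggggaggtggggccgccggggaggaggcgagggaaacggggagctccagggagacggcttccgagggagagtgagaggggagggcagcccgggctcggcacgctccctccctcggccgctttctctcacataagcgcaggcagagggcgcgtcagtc
ESM1, chr5:54985604-54985633, minus strand: acccagtgTATAAAactcataaACGTGtag
FGF2, chr4:122826581-122826707, plus strand: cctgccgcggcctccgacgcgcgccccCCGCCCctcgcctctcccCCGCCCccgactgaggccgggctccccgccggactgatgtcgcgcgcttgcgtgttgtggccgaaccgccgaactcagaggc
HBEGF, chr5:140346632-140346853, minus strand: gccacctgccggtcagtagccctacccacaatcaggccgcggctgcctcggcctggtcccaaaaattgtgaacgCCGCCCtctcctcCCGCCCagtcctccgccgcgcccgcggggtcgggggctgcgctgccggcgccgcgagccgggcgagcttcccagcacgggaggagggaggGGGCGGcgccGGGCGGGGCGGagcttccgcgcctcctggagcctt

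In the full windows of 250 bases before the RefSeq start, GGGCGG occurred 2 times for VEGFC, 3 times for FGF2 and 5 times for HBEGF, where the last 2 matches overlap, and it was found in 42.6% of all 35116 windows. ESM1 held no GGGCGG. It had TATAAA 32 bases before the start, a motif in 10.7% of all windows, and ACGTG 18 bases before it, found in 18.5%. TATAAA also lay 29 bases before the AREG start and 32 before the EREG start, and AREG alone among the members had TGACGTCA, the cAMP response element found in 1.65% of windows. The windows of VEGFC, FGF2 and HBEGF were 74.0%, 75.2% and 76.4% G and C, that of ESM1 47.6%, and the median over all windows was 58.0%. The AP-1 motif TGANTCA was in no member's window and in 6.57% of all. The NF-κB consensus was in 1 of the 5 BDNF windows and in 5.21% of all. These matches are descriptions of the letters in the windows.

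VEGFA, on chromosome 6 (hg38, 43770184 to 43786487, plus strand), was the most abundant member in every library. Its values were 119.2, 133.1 and 115.6 in PBSL plus IL-1β libraries 1 to 3, 105.4, 107.7 and 108.3 in the IL-1β libraries, and 44.2, 54.3 and 49.0 in the untreated libraries. The 3 groups did not overlap, and the untreated libraries were the lowest. The group means stood above 94.2%, 93.3% and 84.6% of tested genes. VEGFC, on chromosome 4 (176683538 to 176792727, minus strand), had 45.6, 48.2 and 45.5 in PBSL plus IL-1β cells, 45.0, 45.1 and 45.8 in IL-1β cells, and 24.8, 24.0 and 23.1 in untreated cells. Both treated groups overlapped each other and lay wholly above untreated cells.

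ESM1, on chromosome 5 (54977864 to 55022671, minus strand), was low and stepped up over all 3 groups. It had 3.85, 9.73 and 6.85 in PBSL plus IL-1β cells, 3.13, 2.70 and 2.69 in IL-1β cells, and 0.715, 0.934 and 0.493 in untreated cells. No group overlapped another, and the first PBSL library was the closest to IL-1β alone. The SD with PBSL was 2.94 around a mean of 6.81, against 0.252 around 2.84 with IL-1β alone. Since every untreated value was under 1, ESM1 entered the test only through the treated libraries.

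FGF2, on chromosome 4 (122826708 to 122898236, plus strand), had 22.7, 24.3 and 24.0 with PBSL plus IL-1β, 22.0, 22.4 and 23.7 with IL-1β, and 12.8, 12.1 and 10.6 in untreated cells. As for VEGFC, both treated groups overlapped each other and stood apart from untreated cells. FGF2 overlaps NUDT6 on the opposite strand, and whether reads were counted by strand is not stated, so the values of both genes are uncertain where they overlap. NUDT6 averaged 5.80 ± 0.440, 5.08 ± 0.117 and 4.76 ± 0.108 in PBSL plus IL-1β, IL-1β and untreated cells (SD, n = 3 each).

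HBEGF, which encodes a heparin-binding EGFR ligand, lies on chromosome 5 (140332843 to 140346631, minus strand). It had 11.3, 10.9 and 9.98 in PBSL plus IL-1β cells, 12.8, 12.9 and 12.8 in IL-1β cells, and 8.27, 9.10 and 6.89 in untreated cells. IL-1β alone was highest, and PBSL plus IL-1β lay between the other groups without overlap. AREG and EREG, which encode the EGFR ligands amphiregulin and epiregulin, were at the bottom of the table. AREG was listed at 0 in every library but the first untreated one, which had 0.078. EREG was listed at 0.014 in 1 PBSL library, at 0.054 and 0.013 in 2 IL-1β libraries, at 0.029 in 1 untreated library, and at 0 in the others. HGF, on chromosome 7 (81699008 to 81770438, minus strand), was listed at 0 in all 9 libraries.

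BDNF, on chromosome 11 (27654893 to 27722058, minus strand), was the one tested member whose level was highest in untreated cells. Its values were 27.7, 21.7 and 24.3 with PBSL plus IL-1β, 30.0, 29.9 and 29.3 with IL-1β, and 31.8, 31.8 and 32.6 in untreated cells. The groups did not overlap, and the first PBSL library was again the closest to IL-1β alone. BDNF overlaps the antisense gene BDNF-AS, so the same doubt about strand applies.

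**Figure D1:**
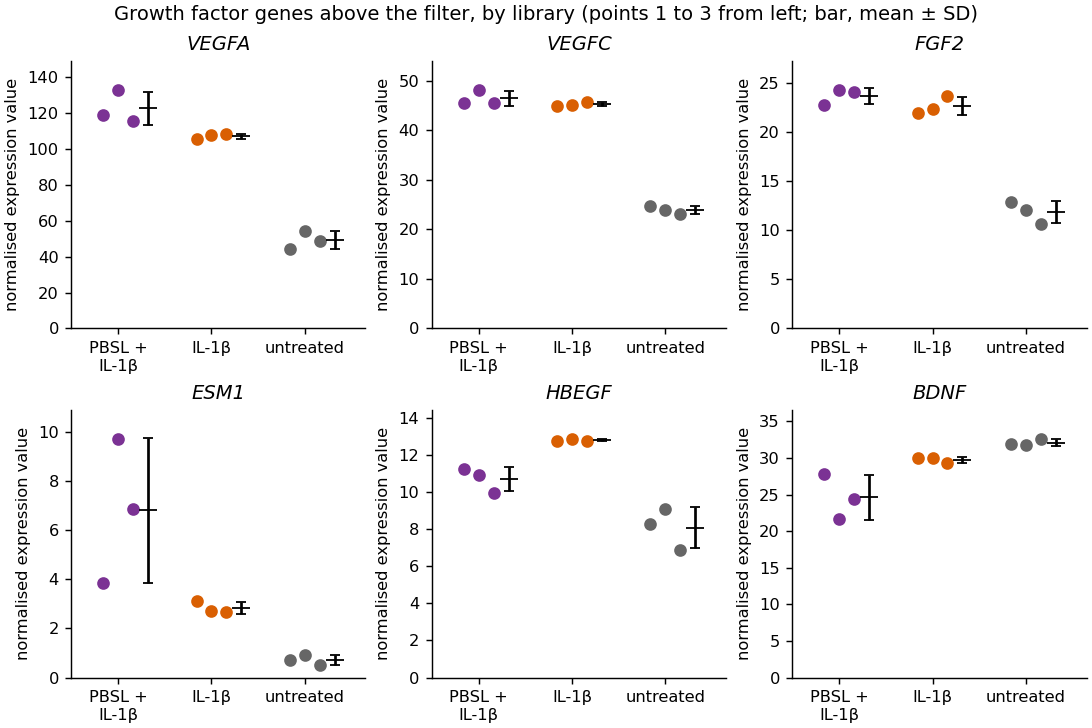
Normalised expression value (vertical axis, from 0) of the 6 members above the filter in each library of PBSL plus IL-1β, IL-1β and untreated cells; points are libraries 1 to 3 from left and bars are mean ± SD. VEGFA, VEGFC, FGF2 and ESM1 are lowest in untreated cells, HBEGF is highest with IL-1β alone, and BDNF is highest in untreated cells.

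IL-1β cells were first set against untreated cells, to see the effect of the cytokine by itself. VEGFA, VEGFC, FGF2, ESM1 and HBEGF were higher with IL-1β than in untreated cells, and BDNF was not called. Thus 5 of 6 tested members rose and 0 fell (limma, and also 0 at an unadjusted p under 0.05), where 16.2% of all tested genes rose and 16% fell. Without ESM1, which the filter kept through its treated libraries, it was 4 of 5. The members, like the related lists below, were chosen with earlier results of these data known. Their shares beside those of all genes are therefore descriptions and not tests. The members' median log2 fold change was 0.89, against -0.0049 over all tested genes.

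VEGFA averaged 107.1 ± 1.51 with IL-1β and 49.2 ± 5.04 in untreated cells (SD, n = 3 each), a log2 fold change of 1.11 (SE 0.0740, limma, Benjamini-Hochberg adjusted p = 3.66e-07). Fold changes are on the log2(value + 1) scale, which understates the change of low genes. VEGFC averaged 45.3 ± 0.430 with IL-1β and 23.9 ± 0.861 in untreated cells, a change of 0.89 (95% confidence interval 0.78 to 1.00, limma adjusted p = 8.57e-08). FGF2 changed by a near equal amount, with 22.7 ± 0.899 in IL-1β cells, 11.8 ± 1.14 in untreated cells and a log2 fold change of 0.88 (SE 0.0695, limma adjusted p = 1.59e-06). These 3 ligands thus stood at 2.18, 1.89 and 1.91 times their untreated means.

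ESM1 averaged 2.84 with IL-1β and 0.714 in untreated cells, a ratio of means of 3.98, and its fitted log2 fold change was 1.17 (SE 0.218, limma adjusted p = 0.00145). HBEGF averaged 12.8 ± 0.0668 with IL-1β and 8.09 ± 1.11 in untreated cells, with a log2 fold change of 0.61 (SE 0.0849, limma adjusted p = 0.000171). BDNF averaged 29.7 ± 0.425 with IL-1β and 32.1 ± 0.446 in untreated cells. Its IL-1β libraries lay wholly below the untreated ones, but the fitted log2 fold change of -0.11 was not called (95% confidence interval -0.27 to 0.06, limma adjusted p = 0.303). That fit also uses the spread of the PBSL libraries. With only the compared groups fitted, the SE was 0.0377 in place of 0.0739 and BDNF was called (limma adjusted p = 0.0464). Libraries of both groups failed to overlap for all 6 tested members and for 52.8% of all tested genes.

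PBSL plus IL-1β was then set against IL-1β alone, which asks what the pretreatment added. ESM1 was higher with PBSL, BDNF was lower, and VEGFA, VEGFC, FGF2 and HBEGF were not called. That is 1 of 6 tested members higher and 1 lower, where 11.5% of all tested genes were higher and 11% lower, so the share is near that of all genes. The members' median log2 fold change was 0.05, against 0.01 over all tested genes. Libraries did not overlap for 4 of the 6, and for 41.8% of all tested genes.

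ESM1 stood at 2.40 times its IL-1β mean with PBSL, with a log2 fold change of 0.95 (SE 0.218, 95% confidence interval 0.48 to 1.43, limma adjusted p = 0.0114). Without the first PBSL library the change was 1.26 (limma adjusted p = 0.000113), and without the second it was 0.69 (adjusted p = 0.0380). BDNF averaged 24.6 ± 3.02 with PBSL and 29.7 ± 0.425 with IL-1β alone, a log2 fold change of -0.27 (interval -0.43 to -0.11, limma adjusted p = 0.0234). Without the first PBSL library it was -0.36 (adjusted p = 0.00106). The BDNF call was lost without IL-1β library 1, 2 or 3 (limma adjusted p = 0.0741, 0.0753 and 0.0607) and without PBSL library 2 or 3 (0.0685 and 0.0557).

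VEGFA averaged 122.6 ± 9.21 with PBSL and 107.1 ± 1.51 with IL-1β alone. All PBSL libraries were above all IL-1β libraries, and the log2 fold change of 0.19 (interval 0.03 to 0.35) was not called after adjustment (limma adjusted p = 0.0836, and 0.0723 without the first PBSL library). HBEGF averaged 10.7 ± 0.660 with PBSL and 12.8 ± 0.0668 with IL-1β alone, with all PBSL libraries below. Its log2 fold change of -0.24 (interval -0.42 to -0.05) was not called (limma adjusted p = 0.0627), but it was called without the first PBSL library (0.0456) and without untreated library 2 or 3 (0.0466 and 0.0273). VEGFC and FGF2 had log2 fold changes of 0.03 (interval -0.08 to 0.14) and 0.06 (interval -0.09 to 0.21), with limma adjusted p = 0.660 and 0.564. For these 2 genes the intervals leave room for changes of up to 0.14 and 0.21 in the higher direction.

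**Figure D2:**
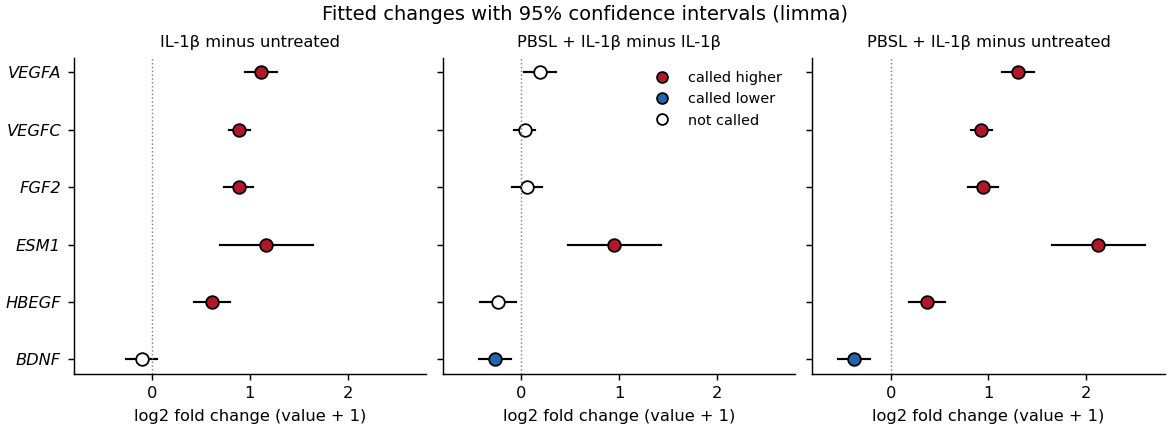
Fitted log2 fold change (horizontal axis, on the log2(value + 1) scale) with 95% confidence interval for the 6 tested members in each comparison; red, called higher, blue, called lower, white, not called. IL-1β against untreated gave 5 red points, and PBSL plus IL-1β against IL-1β gave red for ESM1 at 0.95 and blue for BDNF at -0.27.

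Against untreated cells, cells given PBSL and IL-1β had 5 tested members higher and 1 lower, where 22.3% of all tested genes were higher and 19.3% lower, 41.6% in all. ESM1 is among the 5, and it entered the test only through the treated libraries, where it was high. This comparison shares its libraries with the other two. ESM1 averaged 6.81 ± 2.94 with PBSL plus IL-1β and 0.714 ± 0.221 in untreated cells, with a log2 fold change of 2.12 (interval 1.65 to 2.60, limma adjusted p = 1.42e-05). VEGFA, VEGFC and FGF2 had 1.30, 0.93 and 0.95 (limma adjusted p = 1.04e-07, 6.66e-08 and 9.36e-07). HBEGF had 0.37 (limma adjusted p = 0.00436). BDNF was lower, at -0.38 (limma adjusted p = 0.00170). No call of a member in this comparison was lost when any 1 library was left out.

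The share of each member among the genes of its family shows how their levels stood beside each other in each group. VEGFA made up 53.2% ± 0.705 of the summed values of the 5 VEGF ligands with PBSL plus IL-1β, 53.1% ± 0.331 with IL-1β and 36.6% ± 3.52 in untreated cells (SD, n = 3 each). VEGFB, a family member that binds FLT1, made up 26.5%, 24.2% and 45.2%, and had the highest mean of the family in untreated cells. VEGFC held 20.2%, 22.5% and 17.8%, while VEGFD and PGF stayed under 1 in every library. VEGFB itself averaged 61.3 ± 8.24 with PBSL plus IL-1β, 48.7 ± 0.713 with IL-1β and 60.8 ± 4.55 in untreated cells. It fell with IL-1β (log2 fold change -0.31, limma adjusted p = 0.0145) and was higher with PBSL (0.32, adjusted p = 0.0215). The IL-1β call on VEGFB was lost without untreated library 1 or 3 (0.0533 and 0.0609). The PBSL call was lost without IL-1β library 1, 2 or 3 (0.0624, 0.0595 and 0.0702) or PBSL library 2 (0.0563). It was also lost when the filter was dropped (limma adjusted p = 0.0532).

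Among 7 EGFR ligands, HBEGF held 65.0% ± 1.51 of the summed values with PBSL plus IL-1β, 67.2% ± 0.897 with IL-1β and 50.9% ± 4.97 in untreated cells. TGFA, another membrane-anchored EGFR ligand, held 25.7%, 20.9% and 36.2%, and EGF 4.74%, 7.75% and 10.6%. TGFA fell with IL-1β (3.98 ± 0.0622 with IL-1β and 5.71 ± 0.778 in untreated cells, log2 fold change -0.42, limma adjusted p = 0.00344). EGF, low in every group, was lower with PBSL (0.783 ± 0.0862 with PBSL plus IL-1β and 1.48 ± 0.0452 with IL-1β alone, -0.47, adjusted p = 0.00405). FGF2 made up 39.8% ± 3.20, 32.5% ± 1.48 and 18.0% ± 1.57 of 14 FGF genes in PBSL plus IL-1β, IL-1β and untreated cells. FGF13, which encodes an FGF-related protein kept inside the cell, held the largest mean share in all 3 groups, at 41.3% ± 3.65, 49.0% ± 1.29 and 57.2% ± 3.83 in the same order. The FGF2 share is therefore not a share of secreted ligands alone. BDNF made up 90.9%, 93.6% and 92.8% of the 4 neurotrophins, so it was the main one in all groups.

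**Figure D3:**
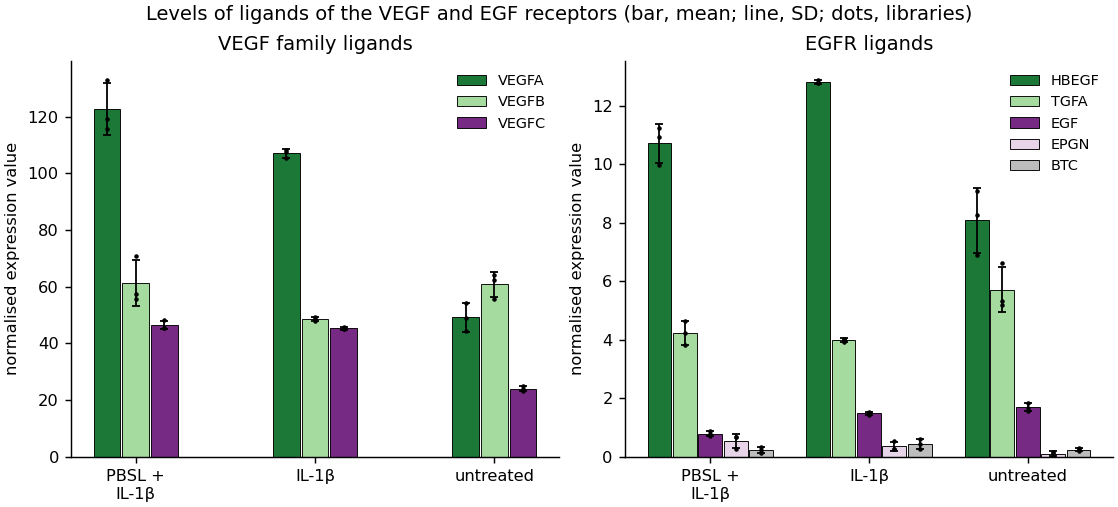
Normalised expression values (vertical axes, from 0) of ligands of the VEGF family and of EGFR in PBSL plus IL-1β, IL-1β and untreated cells; bars are means, lines SD and dots libraries (n = 3 each). VEGFA stands above VEGFB in both treated groups and below it in untreated cells, and HBEGF is the highest EGFR ligand in each group.

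Of 17 tested genes in 4 lists of other ligands and related factors, 3 rose with IL-1β, which is 17.6%, beside 16.2% of all tested genes. With IL-1β 6 fell, which is 35.3%, beside 16%, and NRG2, whose direction was fixed by the filter, is among them. Not all 17 encode secreted ligands, since the FGF13 protein is kept inside the cell and MANF is a factor of the endoplasmic reticulum. With PBSL against IL-1β alone, 2 were higher and 7 lower, which is 11.8% and 41.2%, beside 11.5% and 11%. Among VEGF, PDGF and angiopoietin ligands, 6 of 10 were tested, and 1 rose and 2 fell. ANGPT1, which stabilises vessels through the receptor TEK, rose to 9.98 ± 0.152 with IL-1β, against 5.29 ± 0.570 in untreated cells (log2 fold change 0.81, limma adjusted p = 6.91e-05). It was lower again with PBSL, at 6.33 ± 1.03 (-0.59 against IL-1β, adjusted p = 0.00405). PDGFD, a ligand of the PDGF β receptor, fell with IL-1β (-0.84, limma adjusted p = 5.35e-05), and the second gene that fell was VEGFB. With PBSL against IL-1β alone, 1 rose and 4 fell, and 2 fell without IL-1β library 2 or 3. In the EGF family, 4 of 8 were tested, and 1 rose and 2 fell with IL-1β, though 1 fell without any 1 of the untreated libraries. NRG2, one of those that fell, passed the filter only through the untreated libraries, so its direction was fixed by the filter. NRG1, a ligand of ERBB3 and ERBB4, averaged 52.9 ± 3.83 with PBSL plus IL-1β, 54.0 ± 0.878 with IL-1β and 39.6 ± 4.59 in untreated cells, and rose with IL-1β by 0.44 (limma adjusted p = 0.00124). Among 4 tested of 13 other FGF genes, 0 rose and 2 fell with IL-1β, and 0 rose and 2 fell with PBSL. Only 1 was lower with IL-1β when untreated library 1 or IL-1β library 3 was left out, and only 1 with PBSL when IL-1β library 1 or 2 or PBSL library 2 or 3 was. The PBSL count was also 1 when the filter was dropped. Of 7 other neurotrophin and HGF family genes 3 were tested, and 1 rose and 0 fell in each of these comparisons. MANF, an unrelated factor of the endoplasmic reticulum, rose with IL-1β (0.39, limma adjusted p = 8.57e-05), and NTF3, which encodes neurotrophin-3, was the one higher with PBSL (0.34, adjusted p = 0.0155). The NTF3 call was lost without IL-1β library 2 (0.0689) or PBSL library 2 or 3 (0.0533 and 0.0537).

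In a list of receptors and coreceptors of the members, tested genes fell more often than they rose with IL-1β. Of 21 receptors and coreceptors, 12 were tested, and 2 rose and 7 fell with IL-1β. EGFR, NRP1 and NTRK3 were not called (limma adjusted p = 0.888, 0.801 and 0.449). Over all tested genes, 16.2% rose and 16% fell. NRP2, a coreceptor for VEGFC, rose to 113.2 ± 3.15 with IL-1β, against 53.2 ± 1.16 in untreated cells (log2 fold change 1.08, limma adjusted p = 9.68e-07). With PBSL it was lower than with IL-1β alone, at 80.7 ± 11.3 (-0.49, limma adjusted p = 0.00375). NGFR, a neurotrophin receptor, fell to 1.01 ± 0.0127 with IL-1β, against 4.68 ± 0.154 in untreated cells (-1.49, adjusted p = 4.29e-08). SORT1, which sorts the BDNF precursor, also fell with IL-1β (-0.52, limma adjusted p = 1.81e-05), as did FGFR2 (-0.59, adjusted p = 0.000274).

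With PBSL against IL-1β alone, 0 receptors rose and 5 fell, beside 11.5% and 11% of all tested genes. Only 2 fell without IL-1β library 1 or PBSL library 2, and 1 without IL-1β library 2 or 3 or PBSL library 3. Receptors chosen after their values were seen show what the cells had for each member. The VEGF receptors KDR, FLT1 and FLT4 reached at most 0.991, 0.479 and 0.176 in any library, and the BDNF receptor NTRK2 at most 0.103. The neuropilin NRP1 averaged 164.4, 157.3 and 159.3 in PBSL plus IL-1β, IL-1β and untreated cells. MET, the receptor of HGF, averaged 67.3, 56.4 and 69.5, EGFR 15.4, 13.1 and 12.8, and FGFR1 36.3, 38.4 and 44.2 in the same groups.

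HBEGF and the other membrane-bound ligands are released by proteases. Of 18 sheddases, convertases, HGF activators and their inhibitors, 10 were tested. With IL-1β 6 rose and 0 fell, beside 16.2% and 16% of all tested genes. Only 3 rose without untreated library 1 or IL-1β library 1. ADAM17, the main sheddase of EGFR ligands, averaged 21.5 ± 0.191 with IL-1β and 16.3 ± 0.758 in untreated cells (log2 fold change 0.37, limma adjusted p = 0.000699). RHBDF2, which brings ADAM17 to the cell surface, rose by 0.55 (adjusted p = 0.00122), and TIMP3, an inhibitor of ADAM17, rose by 0.31 (limma adjusted p = 0.00754). With PBSL against IL-1β, 0 rose and 5 fell, beside 11.5% and 11% of all tested genes. Only 2 fell without IL-1β library 1 or 2, and 3 without PBSL library 2 or 3. TIMP3 was among the 5, with 127.7 ± 16.5 in PBSL plus IL-1β cells and 175.3 ± 1.61 in IL-1β cells (-0.46, limma adjusted p = 0.00387).

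Heparan sulfate holds FGF2, HBEGF and VEGFA at the cell surface and in the matrix. Of 18 genes for its carriers and modifiers, 16 were tested. With IL-1β 3 rose and 6 fell, beside 16.2% and 16% of all tested genes. Only 4 fell without untreated library 3 or IL-1β library 3. With PBSL against IL-1β alone 0 rose and 6 fell, beside 11.5% and 11%. In that comparison only 4 fell without IL-1β library 2 or PBSL library 2. SDC4, the membrane carrier syndecan-4, rose to 128.9 ± 3.49 with IL-1β, against 44.9 ± 1.35 in untreated cells (log2 fold change 1.50, limma adjusted p = 3.10e-10). With PBSL it stayed at 122.4 ± 1.93 and was not called against IL-1β (-0.07, limma adjusted p = 0.280). Perlecan, encoded by HSPG2, was lower with PBSL, at 14.8 ± 3.48 against 25.4 ± 0.149 with IL-1β alone (-0.77, adjusted p = 0.00312). AGRN, the matrix proteoglycan agrin, rose with IL-1β (0.64, limma adjusted p = 0.000145) and was lower with PBSL than with IL-1β alone (-0.50, adjusted p = 0.00427). Of 10 angiogenesis inhibitors, 8 were tested, and 1 rose and 4 fell with IL-1β, beside 16.2% and 16% of all tested genes. One of those that fell was SEMA3A, a ligand of neuropilin-1, which passed the filter only through the untreated libraries and so had to be lower, and 3 fell without any 1 of these libraries. THBS1, which encodes the vessel-inhibiting thrombospondin-1, was the one that rose, to 601.6 ± 13.1 with IL-1β, against 440.7 ± 32.3 in untreated cells (0.45, limma adjusted p = 0.00214). With PBSL against IL-1β alone 0 inhibitors rose and 2 fell, beside 11.5% and 11% of all tested genes. Only 1 fell without IL-1β library 1 or 2 or PBSL library 3, or when the filter was dropped. SPARC, a matrix protein that binds VEGFA, was among the 2 (-0.38, limma adjusted p = 0.00312).

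VEGFA is a textbook target of the hypoxia-inducible factors, so hypoxia-responsive genes were set beside it. Of 11 genes, all tested, 9 rose and 0 fell with IL-1β, beside 16.2% and 16% of all tested genes. The median log2 fold change of the 11 was 0.56. The carbonic anhydrase gene CA9 rose to 5.72 ± 0.183 with IL-1β, against 2.08 ± 0.232 in untreated cells (1.13, limma adjusted p = 3.75e-06). STC2, a secreted hormone-like glycoprotein, averaged 151.1 ± 1.41 with IL-1β and 90.9 ± 3.53 in untreated cells (0.73, adjusted p = 2.84e-07). P4HA1, a collagen prolyl hydroxylase subunit, rose by 0.70 (limma adjusted p = 6.89e-06). With PBSL against IL-1β alone 0 of these genes rose and 3 fell, beside 11.5% and 11% of all tested genes. Those that fell included P4HA1 (-0.31, limma adjusted p = 0.00790) and the histone demethylase KDM3A (-0.32, adjusted p = 0.00858). The other one, CA9 (-0.30, limma adjusted p = 0.0485), lost its call under 13 of 16 alternative settings. Whether hypoxia-inducible factors had a part in the rise of VEGFA was not tested.

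Growth factor signalling through ERK turns on a set of short-lived regulators and feedback genes. Of 14 such genes 12 were tested, and 0 rose and 8 fell with IL-1β, beside 16.2% and 16% of all tested genes. The median log2 fold change of the 12 was -0.34. Without untreated library 3, 2 of them rose. CCND1, the cell cycle gene for cyclin D1, fell to 35.6 ± 1.21 with IL-1β, against 70.0 ± 0.589 in untreated cells (-0.96, limma adjusted p = 0.000313). EGR1, an early transcription factor gene, fell by 0.95 on the log2 scale (adjusted p = 0.000321). With PBSL against IL-1β alone, 6 rose and 1 fell, with a median of 0.24, where 11.5% and 11% of all tested genes did. Only 4 rose when the filter was dropped, without any 1 of the IL-1β libraries, or without PBSL library 2 or 3. FOSL1, an AP-1 subunit, averaged 102.8 ± 12.1 with PBSL plus IL-1β and 74.2 ± 2.02 with IL-1β alone (0.46, limma adjusted p = 0.00389). SPRY2, a feedback inhibitor of receptor signalling, averaged 12.9 ± 2.18 with PBSL plus IL-1β and 9.23 ± 0.107 with IL-1β alone (0.43, limma adjusted p = 0.0116). EGR1 was the gene that fell, to 1.19 ± 0.550 with PBSL plus IL-1β, against 2.45 ± 0.0770 with IL-1β (-0.68, limma adjusted p = 0.00825).

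The counts of 0 in these lists are from limma with adjusted p-values. At an unadjusted p under 0.05, 2 ERK response genes were higher and 1 neurotrophin or HGF family gene lower with IL-1β, and 2 receptors and 1 heparan sulfate gene were higher with PBSL against IL-1β. The other counts of 0 given for these comparisons were 0 there too.

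**Figure D4:**
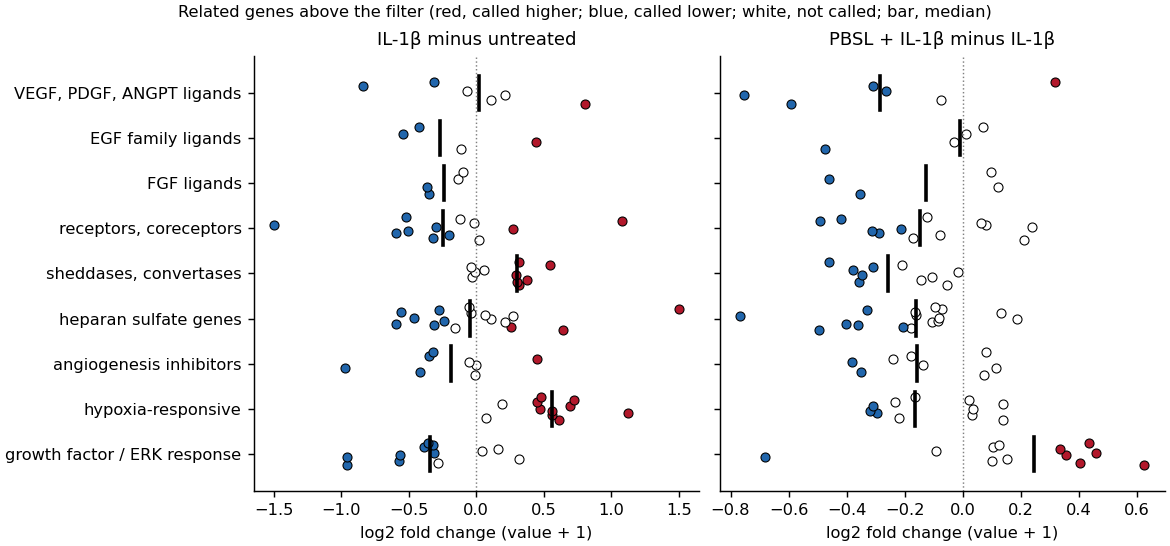
Fitted log2 fold change (horizontal axes, on the log2(value + 1) scale) of tested genes in 9 related lists, for IL-1β minus untreated and for PBSL plus IL-1β minus IL-1β; red, called higher, blue, called lower, white, not called, black bar, list median. Hypoxia-responsive genes have a median of 0.56 in the IL-1β panel, and growth factor and ERK response genes have -0.34 there and 0.24 in the PBSL panel.

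For each tested member, the 3 genes with the most similar log2 values over the 9 libraries were sought among tested genes with a mean of at least 5. The 9 points fall into 3 groups, so each Pearson r mostly reflects the order of the group means, and it is given as a description. VEGFC was closest to NFKBIA, the inhibitor gene that NF-κB itself turns on (r = 0.998), and FGF2 was closest to VEGFC (0.994). VEGFA was closest to the glycolytic enzyme gene ENO2 (0.994), the cytokine gene IL36B (0.993) and STC2 (0.992). ESM1 was closest to the ribosome assembly gene RRS1 (0.995), then to PNP (0.992) and STEAP1B (0.991). RRS1 averaged 30.1, 23.8 and 18.3 in PBSL plus IL-1β, IL-1β and untreated cells, so it stepped up over the groups as ESM1 did, in smaller proportion. HBEGF was closest to INO80 (0.988), CCDC107 (0.986) and SLC26A6 (0.977), and BDNF to SYNC (0.994), S1PR1 (0.988) and TENM2 (0.987). S1PR1 averaged 4.50, 6.91 and 7.72 in the same 3 groups, the order that BDNF had. PIM2 and NEFL followed VEGFC at 0.998 each, and PID1 (0.993) and TRAF3IP2 (0.992) followed FGF2.

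AREG and EREG lie next to each other on chromosome 4 (AREG 74445134 to 74455009 and EREG 74365143 to 74388751, both plus strand), in the region that holds the CXCL chemokine genes. The neighbours were looked at after the values were seen. Within 1 Mb of the pair are 19 protein-coding genes, counting both, of which 6 were tested. All 6 rose with IL-1β, where 16.2% of all tested genes did. CXCL8, the neutrophil chemokine, averaged 1083 ± 22.7 with PBSL plus IL-1β, 1021 ± 25.3 with IL-1β and 2.30 ± 0.403 in untreated cells. CXCL3 averaged 52.1, 68.1 and 0.135, and CXCL5 29.1, 52.0 and 0.145 in the same groups. The EGF family genes of the region stayed low beside them, with EPGN at most 0.661, BTC 0.589, AREG 0.078 and EREG 0.054 in any library. Of the 6 tested genes, CXCL8 alone could pass the filter on its untreated libraries. CXCL1 and MTHFD2L averaged 0.743 and 0.974 in untreated cells, and CXCL3, CXCL5 and CXCL6 were lower still. These genes needed treated libraries to be tested, so their place in the count depended on the groups where they were high.

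**Figure D5:**
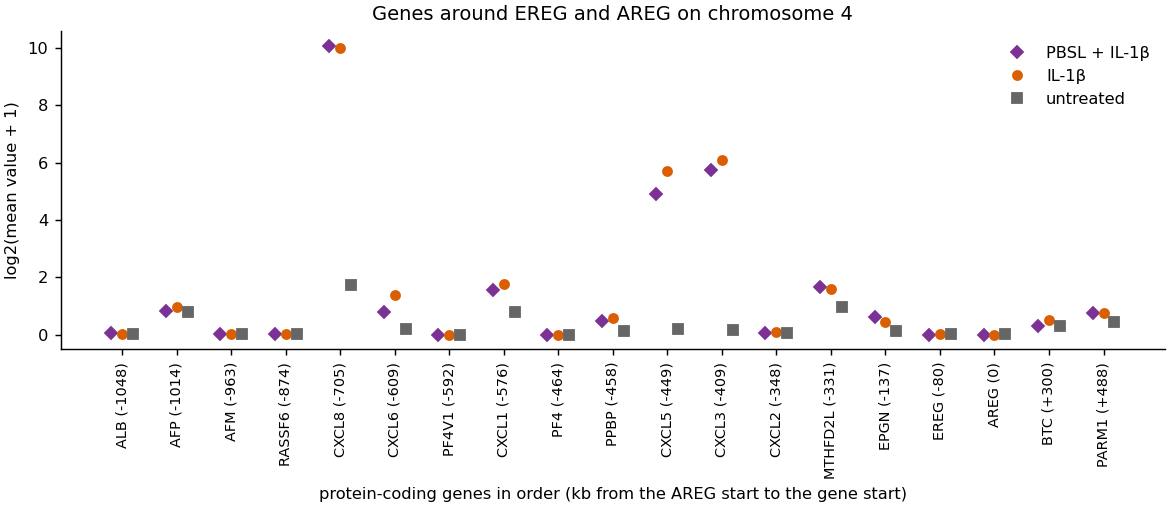
log2(mean value + 1) (vertical axis) of the 19 protein-coding genes within 1 Mb of EREG and AREG, in chromosome order with the distance of each start from the AREG start in kb; diamonds, PBSL plus IL-1β, circles, IL-1β, squares, untreated. CXCL8, CXCL5 and CXCL3 stand high in both treated groups, while AREG and EREG lie at the bottom in all 3 groups.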

How the data were processed

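The libraries were made from SW1353 RNA with a directional MGI mRNA kit, per the labels' protocols. Per the submitters' processing notes, Trim Galore, STAR and HTSeq were used with hg38, with no versions given, and the strand setting of the counting is not given in the sources used here. The authors deposited 1 normalized expression signal per gene and library. The formula, FPKM or TPM, is not stated, so these values are not counts, and the number of reads behind each is unknown. Where single-read steps could be read off, over 259 genes, the step was smaller for genes with longer exons (Spearman rho -0.606 over 258 genes). The step of a library relative to the others was 0.928 to 1.03. These genes were picked for non-zero values close to each other, so similar steps follow from that choice and do not measure depth.

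Tests were run on the 11924 of 19389 genes that reached a value of 1 in 3 or more libraries. limma 3.58.1 in R 4.3.3, with a trend of variance on mean, was fitted to log2(value + 1) of all 9 libraries with each group given its own mean (residual degrees of freedom: 6). All groups shared an estimate of the spread for each gene, so a p-value also rests on the spread in the group outside the comparison. A gene counted as called at a 2-sided Benjamini-Hochberg adjusted p under 0.05 over all tested genes. The fit was tested on simulated data. The smallest p that an exact permutation test of 3 libraries against 3 allows is 0.1, so none was used. The 9 members, the 10 related gene lists with 131 genes, and the tests were chosen with earlier results of these data known. All 9 members were named. So were the 3 genes most correlated with each tested member among tested genes with a mean of at least 5, and up to 4 called genes with the smallest adjusted p of each list and comparison. Of the list genes, 1 (EGLN3) was not analysed here. Positions are from GENCODE 29 (hg38). Promoter sequences are from RefSeq (GRCh38.p14). Tables and figures were made with Python 3.11.15, pandas 2.3.3, scipy 1.17.1 and matplotlib 3.10.9. Alternatives changed the pseudocount, filter, scaling, libraries fitted, variance trend, replicate block or left out 1 library.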

Additional observations from a re-analysis of the deposited data

How the results depend on the processing

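No fold change of a member reversed under any of the 16 alternatives, and VEGFA, VEGFC, FGF2 and ESM1 stayed on the same side of the threshold in all 3 comparisons. No scaling moved the median of all genes by over 0.1. BDNF with PBSL against IL-1β ranged from -0.36 to -0.19 (limma adjusted p 0.00106 to 0.0753) and was also lost with only the compared groups fitted (0.0514). With the same setting BDNF was called for IL-1β against untreated (0.0464), so 1 member was lower there. HBEGF with PBSL against IL-1β was also called after median-ratio rescaling (0.0490) and with only the compared groups (0.0366), within a range of 0.0273 to 0.170, and median-ratio rescaling gave 2 members lower. Leaving out 1 library gave 0 to 2 members lower in that comparison, and 1304 to 3910 genes called in all, against 2684. The lowest counts came without IL-1β library 1, 2 or 3 (1451, 1304 and 1355) and without PBSL library 2 (1434). Same-numbered libraries did not deviate together (correlations -0.225 to 0.0681, against -0.111 to 0.196 for different numbers). With the replicate block, 2131 genes were called for PBSL against IL-1β, the same number of members was called in each direction in all 3 comparisons, and BDNF had an adjusted p of 0.0330. The related lists were run under the same alternatives, a choice made after seeing the data. With 3 libraries a group and no read counts, the precision of low genes such as ESM1, AREG, EREG and HGF is limited, and a value of 0 gives no upper limit.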
